A study of Mus musculus with 12 samples.

Results

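The genes described here are 10 genes of matrix turnover, chosen by their symbols out of 36186 entries in the deposited gene table. They are the matrix metalloproteinases Mmp2, Mmp11, Mmp14 and Mmp23, the tissue inhibitors of metalloproteinases Timp1, Timp2 and Timp3, and the proteinases with thrombospondin repeats Adamts1, Adamts2 and Adamts5. All 10 were found in the table, and all 10 had enough reads to be tested in each of the 4 comparisons below. The question asked of them was whether genes that cut, process or protect the matrix moved together with the genes that encode the matrix itself.

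Matrix metalloproteinases are zinc enzymes that are made as inactive precursors and cut collagens and other matrix proteins outside the cell or at its surface. Tissue inhibitors of metalloproteinases bind the active site of these enzymes and so limit matrix breakdown. The ADAMTS enzymes named above either trim procollagen during fibril assembly or cut proteoglycans such as versican. In the developing kidney these proteins act where epithelial branches grow into mesenchyme and where interstitial cells lay down matrix.

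RNA was sequenced from whole kidneys of separate mouse embryos of a mixed genetic background at E18.5, late in gestation, with 3 libraries in each of 4 genotypes and 12 in all. The alleles are frameshifts in neighbouring Hox genes, and the labels of the mutants read Hoxa9,10,11-/- HoxC9,10,11+/- in the first group, with Hoxa9,10,11+/- HoxC9,10,11-/- in the second and Hoxa9,10,11-/- HoxC9,10,11-/- in the double homozygous group. These groups are written Hoxa-/- Hoxc+/-, Hoxa+/- Hoxc-/- and double homozygous here, and the controls were labelled Wild type. By the study's own account the sequenced double homozygotes carried Hoxa9,10-/- with either Hoxa11+/- or Hoxa11+/+ beside HoxC9,10,11-/-, and the labels do not tell which embryo had which.

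Levels are given as CPM, read counts scaled to a common library total with TMM factors over the 12 libraries. The wild type libraries held 37190058, 42353534 and 39304131 counts, and the Hoxa-/- Hoxc+/- libraries held 28616878, 41185017 and 38337132. The Hoxa+/- Hoxc-/- libraries held 33106687, 47067926 and 46399598 counts, and the double homozygous libraries held 39352884, 40151347 and 36951252. At these depths 3 counts correspond to 0.0614 to 0.115 CPM, and such floors cover counting error only. Column headers place the 9 libraries of wild type, Hoxa-/- Hoxc+/- and double homozygous kidneys on 1 sequencing run and all Hoxa+/- Hoxc-/- libraries on another, so for that genotype run and genotype cannot be told apart. The groups differed in Xist, the RNA of the inactive X chromosome, which was at 190 and 253 CPM in Hoxa-/- Hoxc+/- replicates 2 and 3, at 336 CPM in Hoxa+/- Hoxc-/- replicate 2, and at 72.8 and 60 CPM in double homozygous replicates 2 and 3, against at most 0.139 CPM in the other libraries, all wild type ones among them. Ddx3y, a gene of the Y chromosome, was at 54.3 to 93.5 CPM in the libraries with low Xist and at most 0.0823 CPM in those with high Xist. By these levels all wild type embryos were male and each mutant group held both sexes, so sex and genotype are partly confounded in the comparisons with wild type.

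Replicate 1 of Hoxa-/- Hoxc+/- stood apart from the rest. Its log2 CPM over all genes correlated with the other 2 libraries of its genotype at r 0.92 and 0.91, whereas every other pair of replicates reached at least 0.978. In this library Mmp24, a neural membrane-type metalloproteinase, was at 9.41 CPM against at most 0.242 CPM in the other 11 libraries. Among the 10 genes it held the highest Timp1 and Adamts5 and the lowest Adamts1, Mmp14 and Mmp2 of all libraries. Fold changes of these genes in its genotype are given with it and without it.

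Hox RNA persisted in all mutants, as frameshift alleles allow, so it checks the genotypes little. Hoxa10 was at 125, 152 and 164 CPM in wild type and at 101, 104 and 111 CPM in double homozygous kidneys. Hoxc10 was at 50.1, 58.9 and 66.9 CPM in wild type and at 37.9, 29.1 and 35.7 CPM in double homozygous kidneys. Both genes were lower in all 3 double homozygous libraries than in any wild type library, with log2 fold changes of −0.49 for Hoxa10 (edgeR adjusted p 0.027) and −0.78 for Hoxc10 (edgeR adjusted p 0.0127). Of the 9 Hox genes of these paralog groups these 2 fell between double homozygous and wild type kidneys, the list's median was −0.27 (−0.12 without wild type replicate 3 and −0.04 with Xist as a covariate over all 12 libraries), and with edgeR none passed in the other comparisons. In Hoxa+/- Hoxc-/- against wild type 3 of them had an unadjusted p under 0.05 and DESeq2 called 2, while limma called 0, and in the comparisons that involve Hoxa-/- Hoxc+/- each of these counts was 0. Without wild type replicate 1 edgeR called 1 of them in Hoxa+/- Hoxc-/- against wild type, and it fell. In double homozygous against wild type kidneys the count that fell was 0 without wild type replicate 2 and in the fits of all 12 libraries, of all 12 with Xist and of 9 libraries, and 1 with limma and without wild type replicate 3 or double homozygous replicate 1 or 2. Without wild type replicate 2 adjusted p was 0.108 for Hoxa10 and 0.0583 for Hoxc10, and Hoxa10 also missed the threshold without wild type replicate 3 (0.0904) or double homozygous replicate 1 (0.0942) or 2 (0.0736); adjusted p ranged over all alternatives from 0.00176 to 0.203 for Hoxa10 and from 1.27e-05 to 0.526 for Hoxc10.

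Per kilobase of exon, the wild type kidney held most RNA of Timp3, with a mean of 60.3 CPM per kb, followed by Mmp2 at 55.1, Timp2 at 51 and Adamts1 at 44 CPM per kb. The ranges of Timp3 and Mmp2 overlapped, as did those of Mmp2 and Timp2. Mmp14 followed at 28.5, Mmp11 at 14.4, Mmp23 at 9.35 and Timp1 at 5.54 CPM per kb, and Adamts5 at 3.79 and Adamts2 at 1.72 CPM per kb were lowest, without overlap between neighbours from Timp2 downward. In double homozygous kidneys Timp3 at 82.4 and Timp2 at 73.7 CPM per kb came first, ahead of Mmp2 at 61.1 and Adamts1 at 53.7 CPM per kb, whose ranges overlapped. Adamts2 was last among the wild type means and stood between Timp1 and Adamts5 at 5.04 CPM per kb in double homozygous kidneys, overlapping both.

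**Figure D1:**
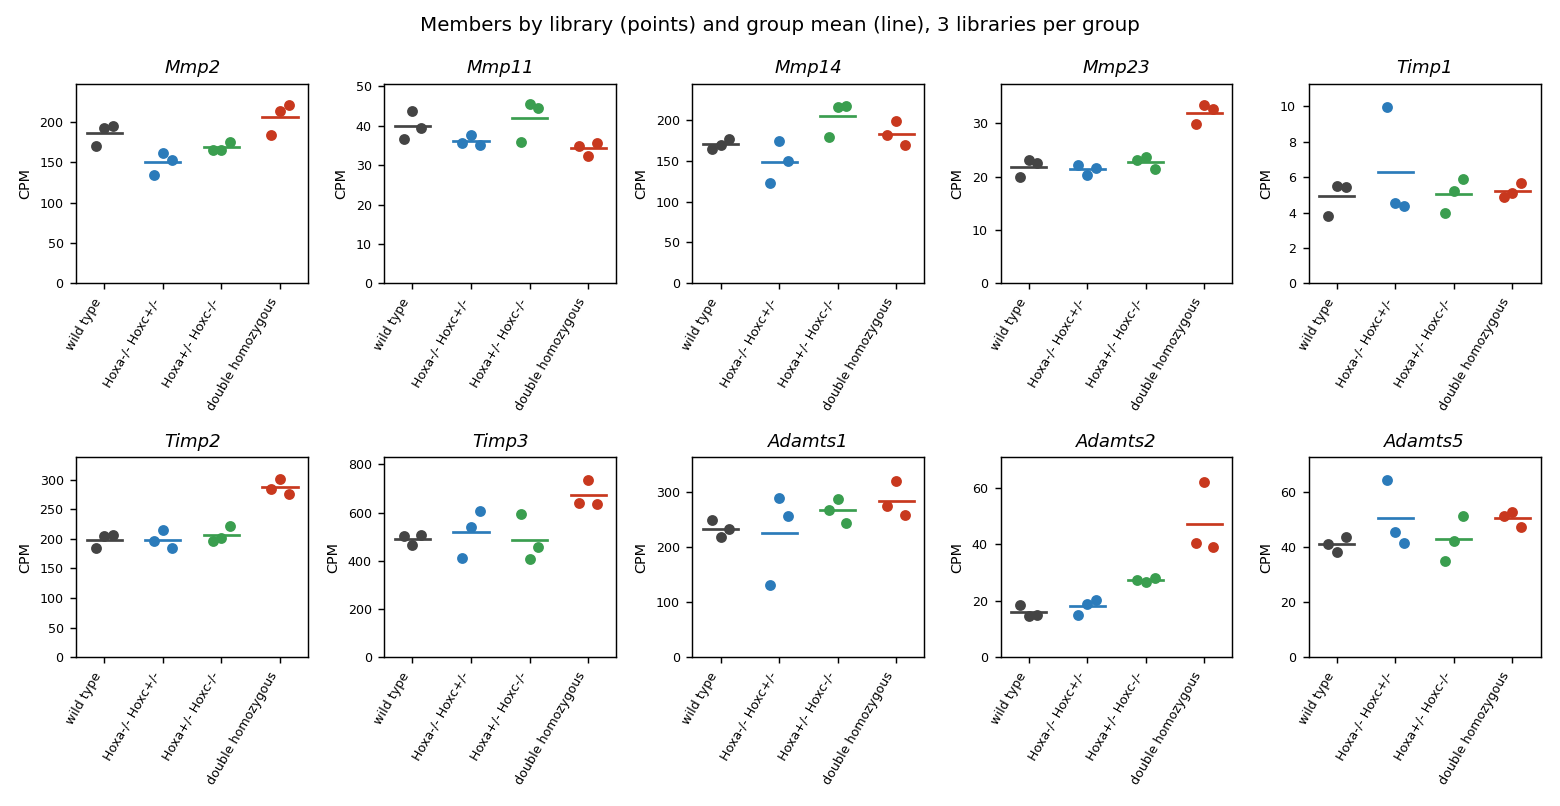
CPM of each of the 10 genes in every library (points) with the mean of each genotype (line), 3 libraries per genotype. Adamts2 has all double homozygous libraries between 38.9 and 62.0 CPM above wild type libraries between 14.73 and 18.52 CPM, whereas Timp1 has its highest point, 9.95 CPM, in Hoxa-/- Hoxc+/- replicate 1.

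The comparison of double homozygous with wild type kidneys asked what the combined Hoxa and HoxC mutation does to the kidney's RNA, in embryos that by the study's account kept 1 or 2 copies of Hoxa11. In double homozygous kidneys the procollagen-trimming enzyme Adamts2 rose 2.93-fold, and Mmp23, Timp2 and Timp3 rose by 1.46-fold, 1.44-fold and 1.36-fold, with 3 libraries per group. No gene of the 10 fell, and the secreted or surface collagenases and gelatinases Mmp2 and Mmp14 did not pass the test. Thus 4 of 10 passed, all of them higher, where 13.7% of the 15839 genes tested passed (999 higher, 6.31%, and 1172 lower, 7.4%). With library size alone as the scale the genes that passed divided into 742 higher and 1649 lower, and the same count of 4 of the 10 passed. Groups did not overlap for 7 of the 10, compared with 38% of all genes: 6 were higher, compared with 17.4%, and 1 was lower, compared with 20.6%. At an unadjusted p under 0.05 the numbers were 7 of the 10 and 5131 of all genes, or 32.4%. The count of all genes called was 2171, and was 3386 without wild type replicate 1, 535 without replicate 2 and 633 without replicate 3, and 793 and 1101 without double homozygous replicates 1 and 2. Of the 10, 3 were called without wild type replicates 2 or 3 or double homozygous replicate 1, and 4 when any other library was left out. The median log2 fold change was 0.29 over the 10 and −0.01 over all genes tested. In bulk RNA of a whole kidney, a change in the number of cells of a type cannot be told apart from a change in RNA per cell.

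Among the metalloproteinases, Mmp23, a membrane-anchored enzyme released by cleavage of its own precursor, was at 20, 23.1 and 22.5 CPM in wild type, 22.2, 20.3 and 21.7 CPM in Hoxa-/- Hoxc+/-, 23.1, 23.7 and 21.5 CPM in Hoxa+/- Hoxc-/-, and 29.9, 33.4 and 32.8 CPM in double homozygous kidneys. The double homozygous libraries were above all 9 others, which overlapped among themselves. Its log2 fold change between double homozygous and wild type was 0.55 (SE 0.09, 95% interval 0.33 to 0.76), and its edgeR adjusted p was 0.012, below the threshold of 0.05. In 14 alternatives, which include the tools DESeq2 and limma, other scalings and each library left out, its adjusted p also passed, from 2.69e-05 to 0.0472.

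Mmp2, the gelatinase that degrades denatured collagen and basement membrane collagen, was at 170, 193 and 195 CPM in wild type, 135, 162 and 153 CPM in Hoxa-/- Hoxc+/-, 165, 165 and 176 CPM in Hoxa+/- Hoxc-/-, and 184, 214 and 221 CPM in double homozygous kidneys. Mmp14, the membrane-anchored collagenase that activates the Mmp2 precursor at the cell surface, was at 164, 169 and 176 CPM in wild type, 122, 174 and 149 CPM in Hoxa-/- Hoxc+/-, 179, 216 and 217 CPM in Hoxa+/- Hoxc-/-, and 181, 198 and 169 CPM in double homozygous kidneys. Wild type and double homozygous libraries overlapped for both genes. Their log2 fold changes were 0.15 for Mmp2 (95% interval −0.08 to 0.37, edgeR adjusted p 0.322) and 0.10 for Mmp14 (95% interval −0.08 to 0.29, edgeR adjusted p 0.406). Over the alternatives these were 0.07 to 0.22 for Mmp2 and 0 to 0.15 for Mmp14.

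Mmp11, which is activated inside the cell by the convertase furin before secretion, was at 36.6, 43.8 and 39.4 CPM in wild type and 34.9, 32.3 and 35.6 CPM in double homozygous kidneys, with means of 36.1 ± 1.35 CPM in Hoxa-/- Hoxc+/- and 41.9 ± 5.26 CPM in Hoxa+/- Hoxc-/- (SD, n = 3 libraries). It was the only gene of the 10 whose double homozygous libraries all lay below the wild type ones. Its log2 fold change was −0.22 (95% interval −0.43 to −0.01) and did not pass, with an edgeR adjusted p of 0.138 that ranged from 0.0673 to 0.425 over the alternatives.

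Among the inhibitors, Timp2, which also bridges Mmp14 and the Mmp2 precursor at the cell surface, was at 185, 204 and 207 CPM in wild type, 197, 214 and 185 CPM in Hoxa-/- Hoxc+/-, 196, 201 and 222 CPM in Hoxa+/- Hoxc-/-, and 284, 301 and 276 CPM in double homozygous kidneys. Timp3, which binds to the matrix and also inhibits ADAMTS and ADAM enzymes, was at 501, 465 and 507 CPM in wild type, 410, 541 and 605 CPM in Hoxa-/- Hoxc+/-, 594, 408 and 456 CPM in Hoxa+/- Hoxc-/-, and 640, 737 and 636 CPM in double homozygous kidneys. For both genes the double homozygous libraries were above all other libraries. Timp2 rose by a log2 fold change of 0.53 (SE 0.08, 95% interval 0.35 to 0.71), with an edgeR adjusted p of 0.00725 that remained below the threshold in each of 14 alternatives, from 3.81e-08 to 0.038.

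Timp3 rose by a log2 fold change of 0.45 (SE 0.09, 95% interval 0.24 to 0.65) with an edgeR adjusted p of 0.02, which stayed under the threshold in 8 of 14 alternatives and ranged from 3.95e-05 to 0.237. Adjusted p for Timp3 was 0.0911 without wild type replicate 2, 0.0721 without wild type replicate 3 and 0.0526 without double homozygous replicate 1. It was also 0.128 in a fit of all 12 libraries, 0.134 in a fit of the 9 libraries of 1 run, and 0.237 with Xist level as a term in a fit of all 12 libraries. Timp1, a soluble inhibitor and the least abundant of the 3 inhibitors per kilobase, was at 3.79, 5.50 and 5.47 CPM in wild type and 4.90, 5.13 and 5.68 CPM in double homozygous kidneys. These groups overlapped, and the log2 fold change was 0.09 (95% interval −0.35 to 0.52, edgeR adjusted p 0.776).

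Among the ADAMTS enzymes, Adamts2, which removes the amino-terminal propeptide from fibrillar procollagens, was at 18.52, 14.73 and 14.97 CPM in wild type, 15.1, 18.9 and 20.4 CPM in Hoxa-/- Hoxc+/-, 27.2, 26.7 and 28.0 CPM in Hoxa+/- Hoxc-/-, and 40.5, 62.0 and 38.9 CPM in double homozygous kidneys. The double homozygous libraries were above all others, the Hoxa+/- Hoxc-/- libraries lay between them and the rest, and wild type overlapped Hoxa-/- Hoxc+/-. The log2 fold change between double homozygous and wild type was 1.55 (SE 0.19, 95% interval 1.10 to 2.00). The edgeR adjusted p of 0.00477 remained below the threshold in each of 14 alternatives, from 8.24e-13 to 0.026.

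The proteoglycan-cutting enzymes Adamts1 and Adamts5 did not pass. Adamts1 was at 249, 218 and 233 CPM in wild type and 275, 321 and 258 CPM in double homozygous kidneys, and Adamts5 was at 41.1, 38 and 43.7 CPM in wild type and 51.0, 52.5 and 47.2 CPM in double homozygous kidneys. For both genes the double homozygous libraries lay above every wild type library. Adamts1 had a log2 fold change of 0.28 (95% interval 0.05 to 0.52, edgeR adjusted p 0.0979), and Adamts5 had 0.29 (95% interval 0.10 to 0.48, edgeR adjusted p 0.0558). DESeq2 gave adjusted p of 0.0406 for Adamts1 and 0.0185 for Adamts5, and edgeR with RLE scaling gave 0.0496 for Adamts5, in ranges over the alternatives of 0.0406 to 0.94 and 0.0185 to 0.364. The log2 fold change ranged over the alternatives from 0.04 to 0.35 for Adamts1 and from 0.23 to 0.43 for Adamts5.

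**Figure D2:**
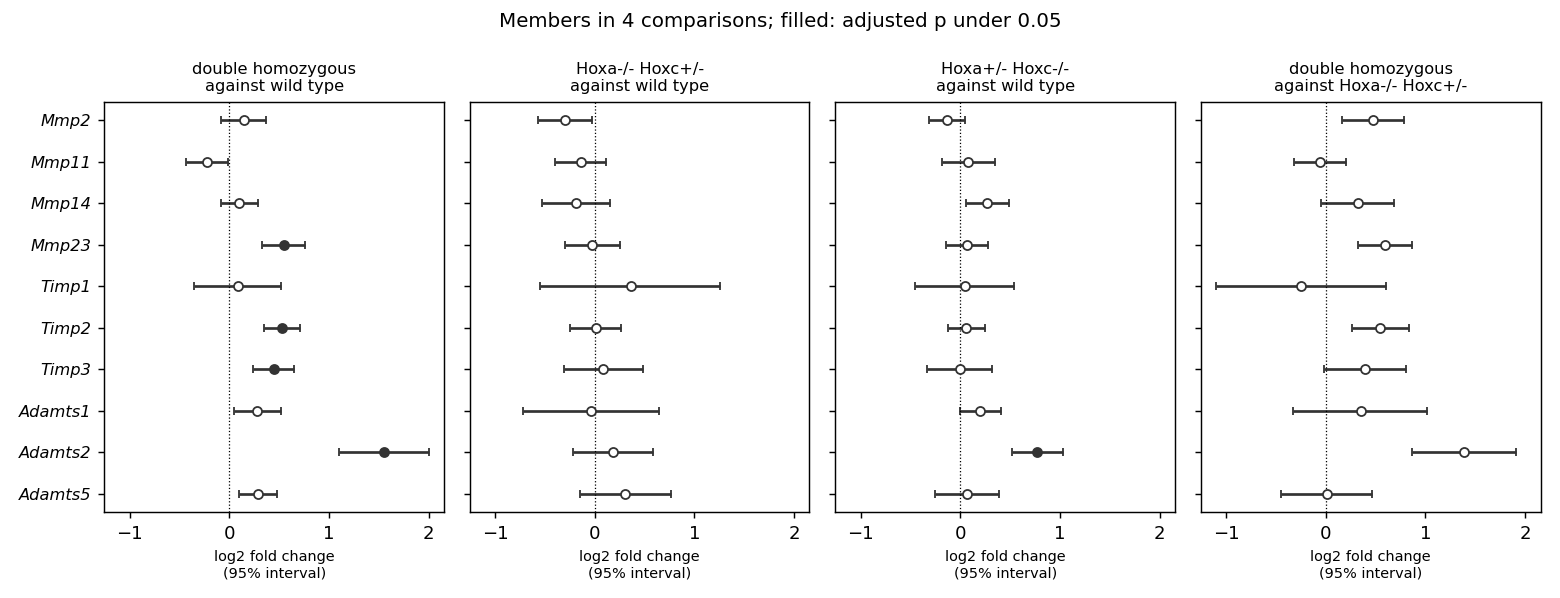
Log2 fold changes of the 10 genes with 95% intervals in the 4 comparisons, 3 libraries per group, filled where edgeR adjusted p is under 0.05. In double homozygous against wild type the filled points are Adamts2 (1.55), Mmp23 (0.55), Timp2 (0.53) and Timp3 (0.45), and in Hoxa+/- Hoxc-/- against wild type the filled point is Adamts2 (0.77).

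The stretches before the starts of Adamts2 and Timp3, which rose, and of Adamts1 and Mmp14, which did not pass, show how their promoters differ in base composition. Each is 150 bases from the reference mouse assembly GRCm38.p6, at chr11:50601934-50602083 on the plus strand for Adamts2, chr10:86300222-86300371 on the plus strand for Timp3, chr16:85803114-85803263 on the minus strand for Adamts1 and chr14:54431448-54431597 on the plus strand for Mmp14. The Timp3 stretch leaves out the 40 bases next to the start, and the Adamts2 stretch leaves out 1 base there. Capitals mark the GC box GGGCGG on either strand and the TATA box TATAAA.
Adamts2: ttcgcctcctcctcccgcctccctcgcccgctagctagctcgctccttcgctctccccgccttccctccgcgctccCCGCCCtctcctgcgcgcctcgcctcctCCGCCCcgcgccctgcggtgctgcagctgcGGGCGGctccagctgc
Timp3: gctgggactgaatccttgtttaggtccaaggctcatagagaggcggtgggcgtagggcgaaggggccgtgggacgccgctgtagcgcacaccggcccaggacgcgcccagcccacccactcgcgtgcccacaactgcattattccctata
Adamts1: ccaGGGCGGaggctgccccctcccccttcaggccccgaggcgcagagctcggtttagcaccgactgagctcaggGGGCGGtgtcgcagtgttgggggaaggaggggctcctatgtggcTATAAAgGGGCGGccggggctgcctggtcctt
Mmp14: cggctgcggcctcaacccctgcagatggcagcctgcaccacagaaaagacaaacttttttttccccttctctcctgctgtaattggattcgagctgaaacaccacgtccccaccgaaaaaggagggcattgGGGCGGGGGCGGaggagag
In windows from 250 bases before to 50 bases after the start, Adamts2 held 5 GC boxes and 77.3% GC, Adamts1 held 3 GC boxes and 1 TATA box with 64.7% GC, Timp3 held 2 GC boxes that lie outside the printed stretch with 67.0% GC, and Mmp14 held 2 GC boxes with 56.0% GC. Of the 10 genes 8 had such a window, all except Mmp2 and Adamts5. Timp2 held 1 GC box, Timp1 held 1, Mmp11 held 4, and the 2 windows of Mmp23 held 0 and 2. Neither the AP-1 motif TGANTCA nor TTTATGG, a motif of Hox proteins of the Abd-B kind, was found in any of these windows on either strand. Over all 32851 promoter windows GGGCGG was found in 35.7%, TATAAA in 13.6%, TGANTCA in 7.8% and TTTATGG in 2.7%. A match describes letters only, and a missing one says only that these letters are not in the window.

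By position in the same assembly, Adamts1 (chr16:85793827-85803113) and Adamts5 (chr16:85858157-85901125) both lie on the minus strand of the same chromosome, and Adamts2 lies at chr11:50602085-50807573 on the plus strand. Timp3 (chr10:86300412-86349505) lies within Syn3 on the opposite strand, sharing 1733 exon bases or 21.28% of its exons, and Syn3 was at 19.1 to 28.3 CPM. Mmp11 (chr10:75923221-75932502) shares 155 exon bases or 5.58% with Chchd10 on the opposite strand, which was at 106 to 182 CPM. The strand rule of the counting is not stated, so reads from the shared bases cannot be told apart.

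The list of interstitial matrix genes was chosen with earlier results of these data known, and its difference from the 10 was not tested. Of 25 interstitial matrix genes 23 rose between double homozygous and wild type kidneys and none fell with edgeR, and their median log2 fold change was 1.22 against 0.29 over the 10. Over all alternatives 21 to 24 of these genes rose, with medians of 1.16 to 1.27. Col1a1, a chain of the main fibrillar collagen, was at 804, 829 and 856 CPM in wild type and at 2900, 3190 and 3080 CPM in double homozygous kidneys. Lum, a proteoglycan that binds collagen fibrils, was at 16.9, 14.8 and 12.3 CPM in wild type and at 86, 149 and 127 CPM in double homozygous kidneys. All double homozygous libraries were far above wild type for both genes, with log2 fold changes of 1.88 for Col1a1 (edgeR adjusted p 0.000199) and 3.04 for Lum (edgeR adjusted p 0.000809). Dcn, another proteoglycan of collagen fibrils, rose by 2.08 (edgeR adjusted p 0.000919), as did Postn, a matrix protein of periosteum and fibrotic tissue, by 1.98 (edgeR adjusted p 0.000919). The exceptions were Fn1, the fibronectin gene, at 0.28 (edgeR adjusted p 0.0709) and Vcan, the proteoglycan cut by Adamts1 and Adamts5, at −0.30 (edgeR adjusted p 0.28).

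**Figure D3:**
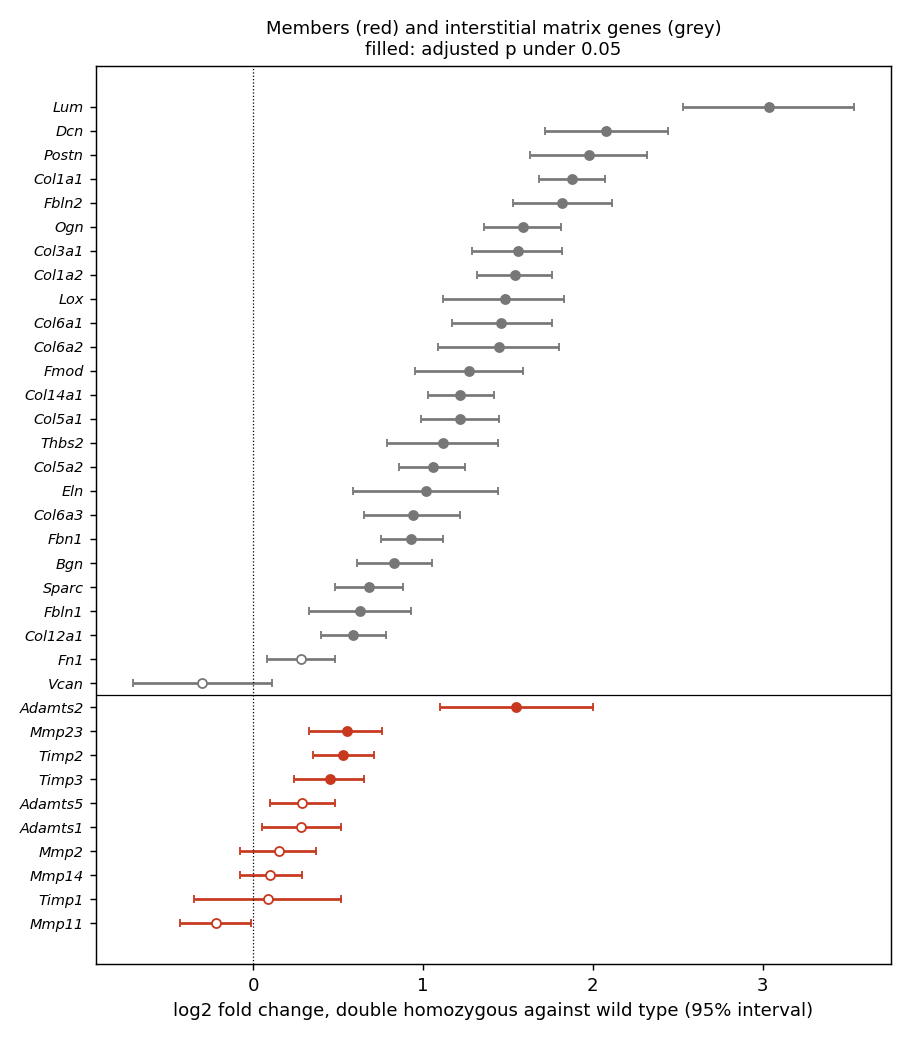
Log2 fold changes between double homozygous and wild type kidneys with 95% intervals, 3 libraries per group, for 25 interstitial matrix genes (grey) and the 10 turnover genes (red), filled where edgeR adjusted p is under 0.05. Lum (3.04) is the largest among the matrix genes, and Adamts2 (1.55) is the only turnover gene above the matrix median of 1.22.

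Measured against the mean log2 CPM of the 25 matrix genes in the same library, 9 of the 10 genes were lower in every double homozygous library than in every wild type library, as were 90.8% of all genes tested, while 0.638% of all genes and none of the 10 were higher. The count of 9 is therefore near the share of all genes, against a matrix mean that itself rose. That mean was 7.57, 7.59 and 7.55 in wild type and 8.72, 8.99 and 8.76 in double homozygous kidneys. Timp2 lay at −0.04, 0.08 and 0.14 relative to it in wild type and at −0.57, −0.76 and −0.65 in double homozygous kidneys, although Timp2 itself rose. The differences between group means of this relative level were −1.47 for Mmp11, −1.15 for Mmp14, −1.14 for Timp1, −1.10 for Mmp2, −0.97 for Adamts1, −0.95 for Adamts5, −0.80 for Timp3, −0.72 for Timp2 and −0.70 for Mmp23. Adamts2 was the exception: it lay at −3.36, −3.71 and −3.65 in wild type and at −3.38, −3.04 and −3.48 in double homozygous kidneys. Its groups overlapped, and the difference was 0.28 against the matrix genes and −0.35 against Col1a1 alone.

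**Figure D4:**
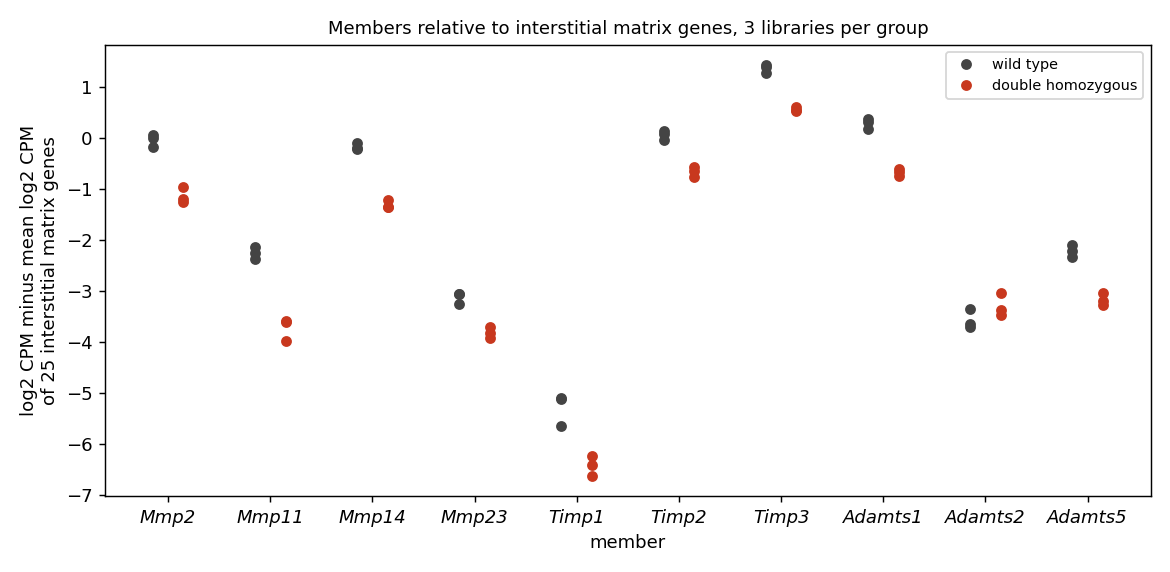
Log2 CPM of each of the 10 genes minus the mean log2 CPM of 25 interstitial matrix genes in the same library, for 3 wild type and 3 double homozygous libraries. For 9 genes, as for 90.8% of all genes tested, the double homozygous points lie below the wild type points (Timp2 −0.57 to −0.76 below −0.04 to 0.14), and for Adamts2 the points overlap.

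Other families of proteinases and inhibitors were tested in the same comparison. Of 19 other metalloproteinase genes 8 had enough reads, and 0 passed with edgeR, with 3 at an unadjusted p under 0.05, 2 with DESeq2 and 0 with limma, and a median of 0.29 (0.46 without wild type replicate 2). The nearest were Mmp28 at 0.74 (edgeR adjusted p 0.0663) and the membrane-type Mmp16 at 0.42 (edgeR adjusted p 0.062). Of 16 other ADAMTS genes 2 rose and 1 fell, with a median of 0.01 (−0.11 without double homozygous replicate 2 and 0.12 without replicate 1). Adamts14, a procollagen propeptidase related to Adamts2, was at 5.51, 5.2 and 4.53 CPM in wild type, 3.1, 5.16 and 5.24 CPM in Hoxa-/- Hoxc+/-, 7.12, 8.27 and 9.22 CPM in Hoxa+/- Hoxc-/-, and 8.44, 7.97 and 7.33 CPM in double homozygous kidneys. Its Hoxa+/- Hoxc-/- and double homozygous libraries overlapped. Between double homozygous and wild type kidneys Adamts14 rose by 0.64 without overlap (edgeR adjusted p 0.0282). Adamts15, a proteoglycan-cutting enzyme, rose by 0.75 (edgeR adjusted p 0.0192), and Adamts16 fell by 0.27 (edgeR adjusted p 0.0375). Without wild type replicate 1, 4 rose and 1 fell. None of these 3 calls held without wild type replicate 2 (Adamts14 0.0959, Adamts15 0.0762, Adamts16 0.105) or without wild type replicate 3 (Adamts14 0.102, Adamts15 0.0716, Adamts16 0.13), with edgeR adjusted p. Without double homozygous replicate 2 they were 0.0662, 0.0552 and 0.0841 in that order, without replicate 1 Adamts14 was at 0.0936 and Adamts16 at 0.0943, and without replicate 3 Adamts16 was at 0.0737. Over all alternatives adjusted p ranged from 0.00127 to 0.177 for Adamts14, from 4.32e-05 to 0.479 for Adamts15 and from 0.0119 to 0.266 for Adamts16.

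ADAMTS-like proteins share the family's ancillary domains, lack the protease, and in several cases bind microfibrils. Of their 6 genes 3 rose, with a median of 0.81. Adamtsl4, which binds fibrillin, was at 6.2, 7.72 and 6.63 CPM in wild type and at 16.3, 19.6 and 13.8 CPM in double homozygous kidneys. It rose by 1.27 without overlap (edgeR adjusted p 0.00477, from 1.19e-10 to 0.0255 over 14 alternatives, all below the threshold). Adamtsl5 rose by 1.04 (edgeR adjusted p 0.0206) and Adamtsl1 by 0.62 (edgeR adjusted p 0.0108). Without wild type replicate 2 adjusted p was 0.0825 for Adamtsl5 and 0.0511 for Adamtsl1, and without wild type replicate 3 it was 0.0754 for Adamtsl5, so that 1 and 2 genes of this family passed in those fits; adjusted p ranged over the alternatives from 0.000159 to 0.0825 for Adamtsl5 and from 9.77e-06 to 0.0681 for Adamtsl1.

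Among 5 further inhibitors and activators 2 rose, with a median of 0.26. A2m, a broad proteinase inhibitor that traps its targets, was at 0.53, 1.23 and 0.396 CPM in wild type, 0.689, 3.9 and 3.24 CPM in Hoxa-/- Hoxc+/-, 2.76, 2.33 and 1.23 CPM in Hoxa+/- Hoxc-/-, and 3.41, 4.9 and 2.94 CPM in double homozygous kidneys. Its double homozygous libraries overlapped those of Hoxa-/- Hoxc+/-. Between double homozygous and wild type kidneys A2m rose by 2.37 (edgeR adjusted p 0.0142, from 1.76e-06 to 0.0903 over the alternatives). Furin, the convertase that activates Mmp11 and Mmp14, rose by 0.33 (edgeR adjusted p 0.0443) and missed the threshold when any library other than wild type replicate 1 was left out, with values of 0.15 and 0.147 without wild type replicates 2 and 3 and of 0.0707, 0.095 and 0.0787 without double homozygous replicates 1, 2 and 3. Its adjusted p ranged from 0.00556 to 0.392 over all alternatives. In the plasminogen system, which activates several metalloproteinases through plasmin, 0 of 6 genes tested out of 7 passed with edgeR, 1 had an unadjusted p under 0.05, DESeq2 and limma gave 0, and the median was 0.21, with 0.43 without wild type replicate 1, 0.41 without double homozygous replicate 3 and −0.02 without double homozygous replicate 2. In the fit without wild type replicate 1, 1 gene of it rose and 1 fell.

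Of 7 genes for cathepsins and their inhibitor 2 rose, the lysosomal proteinases Ctsb by 0.41 (edgeR adjusted p 0.0347) and Ctsd by 0.38 (edgeR adjusted p 0.0378), with a median of 0.38. Of 8 membrane ADAM proteinases 3 rose, with a median of 0.25: Adam12 by 0.95 (edgeR adjusted p 0.00516), Adam33 by 1.45 (edgeR adjusted p 0.0456) and Adam15 by 0.39 (edgeR adjusted p 0.0304). Adam12 was at 34.5, 33.7 and 30.5 CPM in wild type and at 54.4, 74.5 and 61.6 CPM in double homozygous kidneys, without overlap, and its adjusted p ranged from 9.83e-10 to 0.23 over the alternatives. Of 14 basement membrane genes 3 rose, with a median of 0.17 (0.07 with Xist as a covariate over all 12 libraries): Nid1 by 0.51 (edgeR adjusted p 0.00968), Col4a2 by 0.49 (edgeR adjusted p 0.0174) and Nid2 by 0.31 (edgeR adjusted p 0.0348). Without wild type replicate 2 adjusted p was 0.113 for Ctsb, 0.127 for Ctsd, 0.0724 for Adam33, 0.104 for Adam15, 0.0517 for Nid1, 0.0771 for Col4a2 and 0.125 for Nid2. Without wild type replicate 3 it was 0.136, 0.14, 0.15 and 0.111 for the first 4 of these, 0.0845 for Col4a2 and 0.089 for Nid2. Without double homozygous replicate 1 the cathepsin calls gave 0.1 and 0.0875, Adam33 0.129, Adam15 0.0678 and Nid2 0.0787. Without double homozygous replicate 2 they gave 0.0741 and 0.0662, Adam33 0.107, Adam15 0.0738 and Nid2 0.0747. Without double homozygous replicate 3 Adam33 was at 0.0585, Adam15 at 0.051 and Nid2 at 0.081, while 4 cathepsin genes rose, and without wild type replicate 1 Adam33 was at 0.0753. Adjusted p ranged over the alternatives from 0.00107 to 0.136 for Ctsb, 0.00155 to 0.31 for Ctsd, 0.0329 to 0.151 for Adam33, 0.00229 to 0.299 for Adam15, 8.39e-08 to 0.0517 for Nid1, 5.07e-06 to 0.402 for Col4a2 and 0.00142 to 0.148 for Nid2.

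Markers of several cell types moved in the same comparison, and their part in the result was not tested. Of 5 stromal markers 2 rose, Pdgfra by 0.81 (edgeR adjusted p 0.00639) and Foxd1 by 0.66 (edgeR adjusted p 0.0102). The other 3 did not pass with edgeR, and 3 of the 5 log2 fold changes were positive, with a lowest of −0.14. Meis1 was at 69.7, 81.4 and 83.5 CPM in wild type and at 69.1, 68.8 and 74.9 CPM in double homozygous kidneys. Tcf21 was at 188, 235 and 233 against 188, 215 and 230 CPM, and both genes overlapped between these groups. The summed level of the 5 stromal markers was 671, 794 and 744 CPM in wild type, 973, 760 and 734 CPM in Hoxa-/- Hoxc+/-, 748, 797 and 856 CPM in Hoxa+/- Hoxc-/-, and 835, 988 and 959 CPM in double homozygous kidneys. In it Pdgfrb was the most abundant in wild type and Hoxa+/- Hoxc-/-, Tcf21 in Hoxa-/- Hoxc+/- and Pdgfra in double homozygous kidneys. Of 4 macrophage markers tested 3 rose (Mrc1 by 1.32, C1qa by 1.09 and Csf1r by 1.08, edgeR adjusted p of Csf1r 0.00404), and their sum, with Csf1r or Mrc1 the most abundant, was 65.9, 61.4 and 58.9 CPM in wild type, 72, 69.2 and 67.7 CPM in Hoxa-/- Hoxc+/-, 70.1, 72.6 and 81.9 CPM in Hoxa+/- Hoxc-/-, and 146, 148 and 119 CPM in double homozygous kidneys. No entry carried the symbol Adgre1, and Emr1, its older symbol, is in the table but was not part of the list or the sum. The double homozygous sums were above all others for macrophages, and overlapped those of Hoxa-/- Hoxc+/- and Hoxa+/- Hoxc-/- for stroma. Of 5 smooth muscle and mural markers 3 rose, among them Acta2 by 0.56. On leaving out wild type replicate 3 edgeR adjusted p was 0.0538 for Acta2, 0.0639 for Myh11 and 0.0887 for Tagln, so that 0 rose, and without wild type replicate 2 it was 0.0632 for Myh11 and 0.0564 for Tagln, so that 1 rose. It ranged over the alternatives from 9.7e-07 to 0.131 for Acta2, 0.000137 to 0.234 for Myh11 and 0.000322 to 0.155 for Tagln. Their sum, led by Acta2, was 568, 639 and 553 CPM in wild type, 804, 527 and 565 CPM in Hoxa-/- Hoxc+/-, 501, 562 and 592 CPM in Hoxa+/- Hoxc-/-, and 841, 925 and 794 CPM in double homozygous kidneys. Of 4 mast cell markers tested 3 rose, with Cma1 at 4.75, and their sum, led by Kit, was 44.6, 45.8 and 46.4 CPM in wild type, 46.6, 48.1 and 47.4 CPM in Hoxa-/- Hoxc+/-, 45.8, 55.4 and 53.7 CPM in Hoxa+/- Hoxc-/-, and 65.3, 64.3 and 57.9 CPM in double homozygous kidneys. Kit itself went the other way and did not pass with edgeR. It was at 43.2, 43.8 and 44.9 CPM in wild type and at 36.8, 39.8 and 35.2 CPM in double homozygous kidneys, without overlap.

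Some markers of nephron progenitors and of the ureteric bud fell. Of 5 cap mesenchyme markers 2 fell, Gdnf by 1.73 and Cited1 by 1.45 on the log2 scale, and their sum, led by Six2, was 176, 231 and 256 CPM in wild type and 71.2, 47.9 and 145 CPM in double homozygous kidneys. Of 5 ureteric bud and collecting duct markers 4 fell, among them Ret by 1.77, and their sum, led by Aqp2, was 361, 404 and 487 CPM in wild type and 302, 340 and 290 CPM in double homozygous kidneys. The counts that rose were 3 of 5 podocyte, 3 of 5 liver and 2 of 5 skeletal muscle markers. In wild type and double homozygous kidneys the podocyte sum, led by Podxl, was 1110, 1180 and 1150 against 1570, 1720 and 1360 CPM, the liver sum, led by Ttr in wild type and Alb in double homozygous kidneys, 4.34, 4.35 and 5.52 against 20, 30.3 and 9.91 CPM, and the skeletal muscle sum, led by Tnnt3 in wild type and Acta1 in double homozygous kidneys, 2.38, 2.06 and 5.89 against 9.28, 8.63 and 4.25 CPM. With edgeR 0 markers passed in the lists for proximal tubule (5), loop of Henle (2), endothelium (5), neutrophil (3), adipocyte (1, with Lep at 0 in all libraries), cartilage (4), adrenal cortex (3) and gonad (1), the numbers being those tested. Of these 24 markers 7 had an unadjusted p under 0.05, DESeq2 called 5 and limma called 0. The endothelium sum, led by Cdh5, was 651, 700 and 654 CPM in wild type, 553, 679 and 668 CPM in Hoxa-/- Hoxc+/-, 653, 672 and 684 CPM in Hoxa+/- Hoxc-/-, and 754, 799 and 739 CPM in double homozygous kidneys, which were above all 9 others, and 3 of its 5 markers had an unadjusted p under 0.05, with 2 called by DESeq2 and 0 by limma. The proximal tubule sum, led by Lrp2, was 2400, 1180 and 923 CPM in wild type and 2320, 2620 and 1850 CPM in double homozygous kidneys, with overlap. Calls of several of these markers were lost on leaving out a library, with edgeR adjusted p of 0.11 for Cited1 without wild type replicate 2, 0.0997 without wild type replicate 3, 0.101 without double homozygous replicate 1 and 0.081 without replicate 2, in a range of 0.00244 to 0.11 over its alternatives.

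The comparison of Hoxa+/- Hoxc-/- with wild type kidneys asked what the loss of the HoxC paralogs does when 1 copy of the Hoxa paralogs is left. Adamts2 rose 1.71-fold, with Hoxa+/- Hoxc-/- libraries at 27.2, 26.7 and 28.0 CPM above wild type libraries at 18.52, 14.73 and 14.97 CPM, and the other 9 genes did not pass. Thus 1 of 10 passed, higher, where 2.36% of the 15902 genes tested passed (133 higher, 0.836%, and 243 lower, 1.53%). Groups did not overlap for 2 of the 10, compared with 26.6% of all genes, and both were higher, compared with 11.4%, with none lower, compared with 15.2%. At an unadjusted p under 0.05 there were 2 of the 10 and 3349 of all genes, or 21.1%. The count of all genes called was 376, and was 60 and 70 without wild type replicates 2 and 3 and 63 and 99 without Hoxa+/- Hoxc-/- replicates 2 and 3, with 0 of the 10 called in those 4 fits. The median log2 fold change was 0.07 over the 10 and 0.01 over all genes.

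Adamts2 had a log2 fold change of 0.77 (SE 0.11, 95% interval 0.52 to 1.03) and an edgeR adjusted p of 0.0202, which passed in 7 of 13 alternatives and ranged from 2.72e-07 to 0.156. It was 0.129 and 0.1 without wild type replicates 2 and 3, 0.0944 and 0.0828 without Hoxa+/- Hoxc-/- replicates 2 and 3, 0.0955 in a fit of all 12 libraries and 0.156 in that fit with Xist level as a further term. The other gene without overlap was Mmp14, with Hoxa+/- Hoxc-/- libraries at 179, 216 and 217 CPM above wild type libraries at 164, 169 and 176 CPM. Its log2 fold change was 0.27 (95% interval 0.06 to 0.49), and its edgeR adjusted p of 0.152 ranged from 0.0649 to 0.676. The remaining genes lay between −0.13 for Mmp2 and 0.20 for Adamts1. Timp2 at 0.06, Timp3 at 0.00 and Timp1 at 0.05 overlapped wild type, as did Mmp23 at 0.07.

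Of the 25 interstitial matrix genes 5 rose in this comparison and none fell, with a median of 0.39. Lum rose by 1.08 (edgeR adjusted p 0.0196), from the wild type values above to 26.3, 34.8 and 31.6 CPM, and Postn by 0.69 (edgeR adjusted p 0.0376). Without wild type replicates 1, 2 and 3 the matrix genes that rose numbered 2, 0 and 0, and without Hoxa+/- Hoxc-/- replicates 1, 2 and 3 they numbered 11, 0 and 1, while DESeq2 gave 13 and limma 0, and a fit of all 12 libraries gave 1. Lum itself had an edgeR adjusted p of 0.128 and 0.0692 without wild type replicates 2 and 3 and of 0.0892 and 0.0756 without Hoxa+/- Hoxc-/- replicates 2 and 3, in a range of 7.27e-09 to 0.128. Postn had 0.0528, 0.197 and 0.15 without wild type replicates 1, 2 and 3 and 0.0911 without Hoxa+/- Hoxc-/- replicate 2, in a range of 1.79e-05 to 0.257. Adamtsl4 rose by 0.73 (edgeR adjusted p 0.0456), from 6.2, 7.72 and 6.63 CPM to 11.5, 10 and 12.4 CPM without overlap, and missed the threshold without any 1 of the 6 libraries, at 0.0623, 0.141 and 0.17 without wild type replicates 1, 2 and 3 and 0.0783, 0.12 and 0.126 without Hoxa+/- Hoxc-/- replicates 1, 2 and 3 (range over all alternatives 0.000373 to 0.17).

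Adamts13, the enzyme that cuts von Willebrand factor, was at 10.6, 12 and 14.3 CPM in wild type, 11, 6.51 and 7.03 CPM in Hoxa-/- Hoxc+/-, 0.205, 0.143 and 0.166 CPM in Hoxa+/- Hoxc-/-, and 14.4, 8.76 and 7.08 CPM in double homozygous kidneys. It was near absent from all 3 Hoxa+/- Hoxc-/- libraries and present in the other 9. The log2 fold change between Hoxa+/- Hoxc-/- and wild type was −6.15 (SE 0.22), and the edgeR adjusted p of 1.88e-05 remained below the threshold in each of 13 alternatives, from 5.17e-62 to 0.000475. All libraries of this genotype come from the other sequencing run. Of the 16 other ADAMTS genes 12 had a positive log2 fold change between Hoxa+/- Hoxc-/- and wild type, with a median of 0.27 (0.2 with Xist as a covariate over all 12 libraries). With edgeR 1 of the 16 passed, Adamts13, and 7 had an unadjusted p under 0.05, while DESeq2 called 6 and limma 1. Among the marker lists, Ret fell and 2 mast cell markers rose in this comparison, and no other marker of the 69 tested passed with edgeR. In the lists with none called, 17 of 60 markers had an unadjusted p under 0.05, DESeq2 called 12 and limma 0.

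The comparison of Hoxa-/- Hoxc+/- with wild type kidneys asked what the loss of the Hoxa paralogs does when 1 copy of the HoxC paralogs is left. None of the 10 genes passed, and the only gene of the 10 whose libraries did not overlap wild type was Mmp2, at 135, 162 and 153 CPM below 170, 193 and 195 CPM. With edgeR 0 of the 15789 genes tested passed (0% in either direction), where 360 of all genes, or 2.28%, and 1 of the 10, Mmp2, had an unadjusted p under 0.05. DESeq2 called 22 genes, limma 1, a fit of all 12 libraries 2 and edgeR without Hoxa-/- Hoxc+/- replicate 1 8, with none of the 10 among them. Groups did not overlap for 1 of the 10, which was lower, compared with 8.33% of all genes, 3.5% higher and 4.83% lower.

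Mmp2 had a log2 fold change of −0.30 (95% interval −0.57 to −0.03) and an edgeR adjusted p of 1, which ranged from 0.404 to 1. Its activator Mmp14 stood at −0.19 and Mmp11 at −0.14, both overlapping wild type. Timp1 at 0.36 and Adamts5 at 0.30 were highest in replicate 1, at 9.95 and 64.3 CPM, whereas the other 2 libraries held 4.55 and 4.37 CPM of Timp1 and 45.5 and 41.3 CPM of Adamts5. Adamts1 was at 132 CPM in replicate 1 and at 290 and 256 CPM in the others. Without replicate 1 the log2 fold change was −0.15 in place of 0.36 for Timp1, 0.22 in place of −0.04 for Adamts1 and 0.22 in place of 0.08 for Timp3. It was 0.08 in place of 0.30 for Adamts5, −0.08 in place of −0.19 for Mmp14 and −0.24 in place of −0.30 for Mmp2. The median was −0.01 over the 10, 0.03 over all genes and 0.15 over the 25 matrix genes, of which 0 passed with edgeR, 3 had an unadjusted p under 0.05, 1 passed with DESeq2 and 0 with limma. In the same replicate 1 the podocyte marker sum was 669 CPM against 1260 and 1170 CPM in its group, the proximal tubule sum, led by Lrp2, was 375 CPM against 2090 and 2680 CPM, and Foxd1 was at 67 CPM against 34.9 and 25.5 CPM. The part of these in the result was not tested. Of 68 markers 0 passed with edgeR, 7 had an unadjusted p under 0.05, DESeq2 called 1 and limma 0.

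The comparison of double homozygous with Hoxa-/- Hoxc+/- kidneys sets groups side by side that by their labels differ in 1 HoxC copy. By the study's account the double homozygous embryos also kept 1 or 2 copies of Hoxa11 that the other group lacked, so the contrast does not isolate the HoxC copy. Its wild type counterpart above shares the double homozygous libraries. Adamts2 at 40.5, 62.0 and 38.9 CPM lay above 15.1, 18.9 and 20.4 CPM, a log2 fold change of 1.39, and Mmp23 (0.59), Timp2 (0.54), Mmp2 (0.47) and Timp3 (0.39) were also higher without overlap. With edgeR none of them passed, and 0 of the 15764 genes tested passed (0% in either direction), where 1787 of all genes, or 11.3%, and 4 of the 10 had an unadjusted p under 0.05. Groups did not overlap for 5 of the 10, all higher, compared with 22.8% of all genes, 10.1% higher and 12.7% lower.

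The count of 0 changed with the library left out, the tool and the size of the fit. Without Hoxa-/- Hoxc+/- replicate 1, 687 genes and 3 of the 10 passed with edgeR: Adamts2 rose by 1.28 (adjusted p 0.0294), Mmp23 by 0.63 (adjusted p 0.0222) and Timp2 by 0.55 (adjusted p 0.033). Without it the log2 fold change was 0.41 for Mmp2, 0.25 for Timp3, 0.20 for Mmp14, 0.08 in place of 0.35 for Adamts1, 0.23 in place of 0.01 for Adamts5 and 0.25 in place of −0.25 for Timp1. DESeq2 called 554 genes with 4 of the 10 among them, a fit of all 12 libraries 540 with 4, a fit of the 9 libraries of 1 run 181 with 3, and limma 1 with none of the 10. With all 6 libraries edgeR adjusted p was 0.126 for Adamts2, 0.188 for Mmp23, 0.222 for Timp2, 0.295 for Mmp2 and 0.469 for Timp3. Over the alternatives it ranged from 1.41e-05 to 0.472 for Adamts2, 0.000417 to 0.694 for Mmp23, 0.000646 to 0.712 for Timp2 and 0.0299 to 0.841 for Mmp2. The median log2 fold change was 0.37 over the 10, −0.01 over all genes and 1.13 over the 25 matrix genes. Of 71 markers 0 passed with edgeR, 22 had an unadjusted p under 0.05, DESeq2 called 11 and limma 0. Of these matrix genes 0 passed with edgeR, though 24 had an unadjusted p under 0.05, with 20 called by DESeq2, 0 by limma and 21 by edgeR without Hoxa-/- Hoxc+/- replicate 1.

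The 3 comparisons with wild type share its libraries, so their values for the 10 genes are set side by side and not correlated. Adamts2 had log2 fold changes of 0.18 in Hoxa-/- Hoxc+/-, 0.77 in Hoxa+/- Hoxc-/- and 1.55 in double homozygous kidneys. Timp2 had 0.01, 0.06 and 0.53 in that order, Mmp23 had −0.03, 0.07 and 0.55, and Timp3 had 0.08, 0.00 and 0.45. For Mmp2 the values were −0.30, −0.13 and 0.15. With a library left out the Hoxa-/- Hoxc+/- value of Adamts2 was 0.09 to 0.29. Whether the genotypes differ in these changes was not tested, apart from the comparison of double homozygous with Hoxa-/- Hoxc+/- kidneys.

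Within genotypes, the spread between libraries gives a second view of whether turnover genes follow matrix genes. For each gene the deviation of its log2 CPM from its genotype's mean was correlated over the 12 libraries with the mean of such deviations of the 25 matrix genes, each scaled to its SD, as a description over 16260 genes. Timp2 followed the matrix most closely, at r 0.78 and rho 0.76, and 0.486% of all genes had a higher r. Mmp14 had r 0.62 (rho 0.69, 2.46% of genes higher) and Adamts5 r 0.53 (rho 0.44, 4.64% higher). Mmp11 had 0.45, Mmp2 0.37, Adamts2 0.37, Timp1 0.28, Adamts1 0.12, Mmp23 −0.07 and Timp3 −0.31. The median r was 0.37 over the 10, −0.01 over all genes and 0.60 over the matrix genes, each set against the mean of the others.

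These values depend on single libraries to different degrees. The median over the 10 was 0.23 without Hoxa+/- Hoxc-/- replicate 1, 0.22 within the 9 libraries of 1 run and at most 0.45 with 1 library left out. Timp2 had r 0.75 without the 2 libraries farthest from the median of the matrix mean, Hoxa+/- Hoxc-/- replicate 1 and double homozygous replicate 2, 0.76 within the 9 libraries of 1 run and 0.78 without Hoxa-/- Hoxc+/- replicate 1. In the same order Mmp14 had 0.46, 0.51 and 0.88, and Adamts5 had 0.39, 0.19 and 0.76. With 1 library left out Timp2 lay between 0.69 and 0.87, Mmp14 between 0.50 and 0.88 and Adamts5 between 0.25 (without Hoxa+/- Hoxc-/- replicate 1) and 0.76. Without Hoxa+/- Hoxc-/- replicate 1 r was −0.04 for Mmp11, 0.04 for Timp1 and 0.16 for Timp3, and without replicate 3 of that genotype it was 0.19 for Mmp23. Without double homozygous replicate 2 r was 0.74 for Mmp11, −0.10 for Adamts2, −0.31 for Mmp23, −0.57 for Timp3 and −0.02 for Adamts1, and without replicate 1 it was 0.21 for Mmp2 and −0.30 for Mmp23. Without Hoxa-/- Hoxc+/- replicate 1 r was 0.36 for Adamts1 and 0.48 for Timp1, without replicate 2 it was −0.10 for Adamts1, 0.47 for Timp1 and 0.10 for Mmp23, and without replicate 3 it was 0.58 for Adamts2, 0.26 for Adamts1, 0.17 for Timp1 and −0.17 for Timp3. The sign of r thus turned for Mmp11, Mmp23, Timp3, Adamts1 and Adamts2 when 1 of these libraries was left out. The other sequencing run held samples of 1 genotype only.

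Among themselves the 10 genes varied within genotypes in pairs that rest in part on Hoxa-/- Hoxc+/- replicate 1. Timp1 and Adamts1 had r −0.86 with that library and −0.41 without it, Mmp14 and Adamts1 had 0.77 and 0.46, and Timp1 and Adamts5 had 0.80 and 0.52. Mmp14 and Timp2, partners at the cell surface, had 0.61 with it and 0.82 without it. Mmp11 and Timp3 had −0.65 with it and −0.91 without it. Among the pairs whose sign turned without it, Mmp14 and Adamts5 went from −0.12 to 0.79, Mmp14 and Timp1 from −0.38 to 0.52, and Mmp2 and Timp1 from −0.15 to 0.71.

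The genes most like each of the 10 over the 12 libraries, by the same r, are given as a description. Timp2 was closest to Lamb2, a laminin chain (0.959), 1700003F17Rik (0.946) and Nid1, which links laminin and collagen networks (0.929). Mmp14 was closest to Fgf5, a fibroblast growth factor (0.958), Sulf1, an extracellular sulfatase (0.952), and Pcsk5, a proprotein convertase (0.942). Mmp2 was closest to Adamts17 (0.979), Nfix (0.934) and Apcdd1 (0.929), and Timp1 to Ndn (0.989), Eva1b (0.988) and Ier5 (0.986). Mmp11 was closest to C2cd4b (0.936), Mmp23 to Gm10125 (0.946), Timp3 to Ranbp3l (0.968) and Adamts5 to Sept1 (0.987). Adamts1 was closest to Atrn (0.998), Bbx (0.995) and D14Abb1e (0.993), and Adamts2 to Havcr1, an injury marker of proximal tubule (0.975), Birc3 (0.966) and Gltpd1 (0.958). Without Hoxa-/- Hoxc+/- replicate 1 these first-named partners had 0.959 for Lamb2, 0.914 for Fgf5, 0.969 for Adamts17, 0.964 for Ndn, 0.989 for Atrn and 0.968 for Havcr1.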

How the data were processed

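Whole-kidney RNA had been sequenced as paired-end TruSeq libraries; per the submitters' notes reads were aligned to mm10 in Strand NGS, and reads aligning to more than 1 position were removed. The authors deposited expected counts per gene, with entries that are not whole numbers, and a second table of log2 values. The deposited expected count values were rounded to whole counts for the 12 libraries. For the 92 symbols listed more than once the entry with most reads kept the symbol. Fits were quasi-likelihood tests of edgeR 4.0.16 in R 4.3.3 with TMM factors, in 6 libraries per comparison, after filterByExpr (minimum count 10, minimum total 15). Every p was adjusted by Benjamini-Hochberg over all genes tested, with a threshold of 0.05. Log2 CPM used a prior count of 0.5. Alternatives were RLE factors, library size alone, no filter, DESeq2 1.42.0, limma 3.58.1 on the deposited log2 values, a fit of all 12 libraries, that fit with Xist level as a further term, a fit of the 9 libraries of 1 run, and each library left out. Likeness without Hoxa-/- Hoxc+/- replicate 1 was added after seeing the data. Named genes outside the 10 were the 3 per list with the largest change among those that passed without overlap of the groups and with a mean count of at least 10, every other metalloproteinase, ADAMTS gene, inhibitor or activator that passed, and matrix genes that did not; Col1a1, Mmp16, Mmp24 and Mmp28 were named after their values were seen. The 10 genes and the 29 lists, 18 of them of markers, were chosen with earlier results of these data known. The result of 1 marker list is not reported here. Exon lengths for CPM per kb were those of the merged exons of all GENCODE transcripts of a gene, and the order between genes depends on this choice. Promoter sequences are from RefSeq, GRCm38.p6, by symbol. Scripts were tested on simulated data. Python 3.11.15 and matplotlib 3.10.9 drew the figures.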

Additional observations from a re-analysis of the deposited data

How the results depend on the processing

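Under all alternatives Adamts2, Mmp23 and Timp2 kept their direction and their side of the threshold between double homozygous and wild type kidneys. Of log2 fold changes with a library left out, 431 kept both, 127 lost the threshold, 3 gained it and 21 turned sign; under the other alternatives 618 kept both, 19 gained the threshold, 7 turned sign and the rest lost the threshold. The cause was not tested for any value below. Depth limits Timp1 most among the 10 genes, and 3 libraries per genotype limit every test. No paired analysis was possible because the sample labels do not give the litter of each embryo.

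Genes called between double homozygous and wild type numbered 3380 with DESeq2, 1190 with all 12 libraries, 1009 with all 12 libraries and Xist level as a term (Xist level below always means this fit), 1215 with limma, 690 with the 9 libraries of 1 run and 535 to 3386 with a library left out. With Xist level the log2 fold change was 0 for Mmp14 and 0.09 for Adamts13, and leaving out a library gave −0.06 to 0.18 for Timp1.

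Between Hoxa-/- Hoxc+/- and wild type the genes called numbered 22 with DESeq2, 2 with all 12 libraries, 1 with limma and 0 to 8 with a library left out. Timp2 was −0.07 with library size alone. With a library left out the log2 fold change was −0.09 to 0.01 for Mmp23, −0.15 to 0.56 for Timp1, −0.05 to 0.06 for Timp2, −0.04 to 0.22 for Timp3 and −0.26 to 0.22 for Adamts1.

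Between Hoxa+/- Hoxc-/- and wild type the genes called numbered 1318 with DESeq2, 149 with all 12 libraries, 134 with Xist level, 158 with limma and 60 to 549 with a library left out. Of the 10, 0 were called with all 12 libraries or with Xist level, and 0 to 1 with a library left out. Timp3 was 0 with library size alone. With a library left out the log2 fold change was −0.12 to 0.18 for Timp1, −0.19 to 0.1 for Timp3 and −0.08 to 0.19 for Adamts5.

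Between double homozygous and Hoxa-/- Hoxc+/- the genes called numbered 554 with DESeq2, 1 with no filter, 540 with all 12 libraries, 653 with Xist level, 1 with limma, 181 with the 9 libraries and 0 to 687 with a library left out. Of the 10, 4 were called with DESeq2, 4 with all 12 libraries, 4 with Xist level, 3 with the 9 libraries and 0 to 3 with a library left out. The log2 fold change of Adamts5 was −0.01 with all 12 libraries, −0.01 with Xist level, −0.01 with the 9 libraries and −0.13 to 0.23 with a library left out, and that of Timp1 was −0.47 to 0.25 with a library left out.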
